A study of Danio rerio with 9 samples.

Results

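Skeletal muscle of *bves* knockout (*bves* KO) zebrafish was compared with that of wild-type (WT) zebrafish by RNA sequencing, in fish that had not been trained. The comparison rested on 6 of the 9 libraries of the series, 3 of WT and 3 of *bves* KO, and was chosen by the sample labels alone. The other 3 libraries came from exercised knockout fish (*bves* KO-EX) and stayed outside the comparison. The WT fish were of the AB strain and carried an intact *bves* gene. The *bves* KO fish carried a frameshift allele made by CRISPR/Cas9 editing of exon 2. The study made several such lines, and which line supplied the muscle for sequencing is not given in the sources used here. The knockout was present in the whole fish and not only in muscle. The WT fish came from a national resource centre, whereas the knockout fish were generated in the authors' laboratory. The strain of the knockout line is not given, so differences of genotype and of fish stock cannot be told apart here. All fish were males aged 12 months, and each library held muscle of 2 fish. Poly(A) RNA was read from both ends in stranded libraries.

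*bves*, also called *popdc1*, encodes a membrane protein of the Popeye domain family, whose Popeye domain binds cyclic AMP. The proteins of this family sit in the sarcolemma and the T-tubules of striated muscle, where they interact with caveolin-3 and with ion channels. Inherited loss of the human gene causes a limb-girdle muscular dystrophy with disturbed heart rhythm. In muscle, insulin and IGF signalling runs through insulin receptor substrates to PI3K, Akt and the mTOR complexes and sets protein synthesis, while FoxO factors and the ubiquitin ligases Fbxo32 and Trim63 drive protein loss.

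The knockout was directed by a pair of guide RNAs against exon 2 of *bves*, a gene on chromosome 16. The target parts of both are shown, read 5′ to 3′ from the study's list of oligonucleotides, because they name the place at which the gene was cut. The 12 bases in capitals are those at the 3′ end of each guide, beside the PAM, where pairing with the target matters most for cutting.
Guide 1: acccagccCGAGACTCAGGT
Guide 2: tctattggTGCTCTACGGGA
Guide 1 holds 13 G or C bases among its 20 and guide 2 holds 10.

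The targeted gene was lower in every knockout library. Expression is given as CPM (reads of a gene scaled to a common library total) after TMM scaling, a correction for library composition. *bves* (ENSDARG00000058548) stood at 38.5, 55.6 and 42.7 CPM in WT and at 7.74, 17.1 and 6.54 CPM in *bves* KO. The groups did not overlap, and *bves* KO 2 was the highest of the knockout libraries. The knockout libraries held 17%, 37.5% and 14.3% of the WT mean, so transcripts of the edited gene were still counted. The log2 fold change was -2.12 with a standard error (SE) of 0.36, and edgeR's quasi-likelihood test gave an adjusted p of 0.036. An exact permutation test of the 6 CPM values, two-sided, gave p = 0.1, the smallest that 3 libraries against 3 allow. With any 1 library left out the log2 fold change lay between -2.674 and -1.875. The edgeR adjusted p became 0.109, 0.106 and 0.0651 without WT 1, WT 2 and WT 3, and 0.15 and 0.118 without *bves* KO 1 and *bves* KO 3, so the call was lost without any one of these, and it was kept without *bves* KO 2.

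The gene beside it was lower too. *popdc3*, another Popeye domain gene and the direct neighbour of *bves* in the RefSeq gene order of the assembly GRCz12tu, stood at 8.69, 13.5 and 13.6 CPM in WT and at 2.67, 7.04 and 4.41 CPM in *bves* KO. The groups did not overlap, but the log2 fold change of -1.34 (SE 0.35) did not pass the edgeR test (adjusted p = 0.11). Of the 10 genes on each side of *bves*, 15 of 20 were expressed highly enough to be tested. By edgeR 0 of these were called. An unadjusted p under 0.05 was found in 5, against 8.39% of all tested genes in the upward and 8.14% in the downward direction. Of them, *popdc3*, *cnot10* and *trim71* were lower in *bves* KO without overlap, and *pimr209* and *gask1a* were higher with overlapping libraries. DESeq2 called 2 of the 15, *popdc3* (adjusted p = 0.0189) and the Pim kinase gene *pimr209* (log2 fold change 2.05, adjusted p = 0.0186). Of 14739 genes to which DESeq2 gave an adjusted p, it called 267 up and 198 down.

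The libraries held between 17422188 and 18860779 estimated counts in WT and between 18102356 and 18661161 in *bves* KO, so depth was nearly the same in both groups. The tissue label was borne out by the fast muscle genes, whose summed level ran from 97300 to 196900 CPM in WT and from 140100 to 176900 CPM in *bves* KO. Of 7 cardiac markers, the genes *myl7*, *nppa* and *nppb* were at or under 3 counts in every library. WT 2 stood apart from the other WT libraries, with a TMM factor of 0.786 against 1.16 and 1.08 in WT 1 and WT 3, and each of its distances to the knockout libraries was larger than theirs. Among the knockout libraries, *bves* KO 2 and *bves* KO 3 lay 65.71 apart, a distance over log2 CPM of the most variable genes, which exceeded every distance between WT libraries (at most 56.68) and some of those between the groups (from 59.84). Among the libraries labelled as exercised knockouts, 2 of 3 had *bves* transcripts at WT level, which is why the exercised group was left out of the fit. Their genotype was not tested. Of 19 lists of cell type markers with a tested gene, those of 4 other cell types were higher in all knockout libraries than in any WT library. They were those of fibroblasts (507 to 650 CPM in WT, 967 to 1463 CPM in *bves* KO), endothelium (308 to 377 and 395 to 445 CPM), macrophages (54.0 to 58.7 and 72.1 to 80.0 CPM) and T and NK cells (2.86 to 3.80 and 5.68 to 7.87 CPM). Of these lists, 8 of 9 tested fibroblast markers, 8 of 11 endothelial, 7 of 7 macrophage and 3 of 4 T and NK cell markers had a positive log2 fold change, and 0 were called by edgeR. The T and NK cell list held 9 markers, of which only these 4 were expressed highly enough to be tested. Among all tested genes, 11.3% lay higher in every knockout library than in any WT library. In whole muscle, more cells of a type and more RNA per cell cannot be told apart.

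A gene was called when edgeR's adjusted p was under 0.05 and its fold change was above 2. Of 14025 genes tested, 71 were called higher in *bves* KO (0.506%) and 45 lower (0.321%), together 0.827%. The WT and knockout libraries did not overlap for any of these 116 genes, but the same held for 11.3% of all tested genes in the upward and 10.3% in the downward direction. The called genes that rose had a median log2 fold change of 1.68, and those that fell one of -2.42. They were mostly genes of low to middle expression, with a median of 11.7 CPM for those that rose and 4.83 CPM for those that fell, and 0 of them was encoded by the mitochondrial genome. The median log2 fold change of all tested genes was -0.03.

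**Figure D1:**
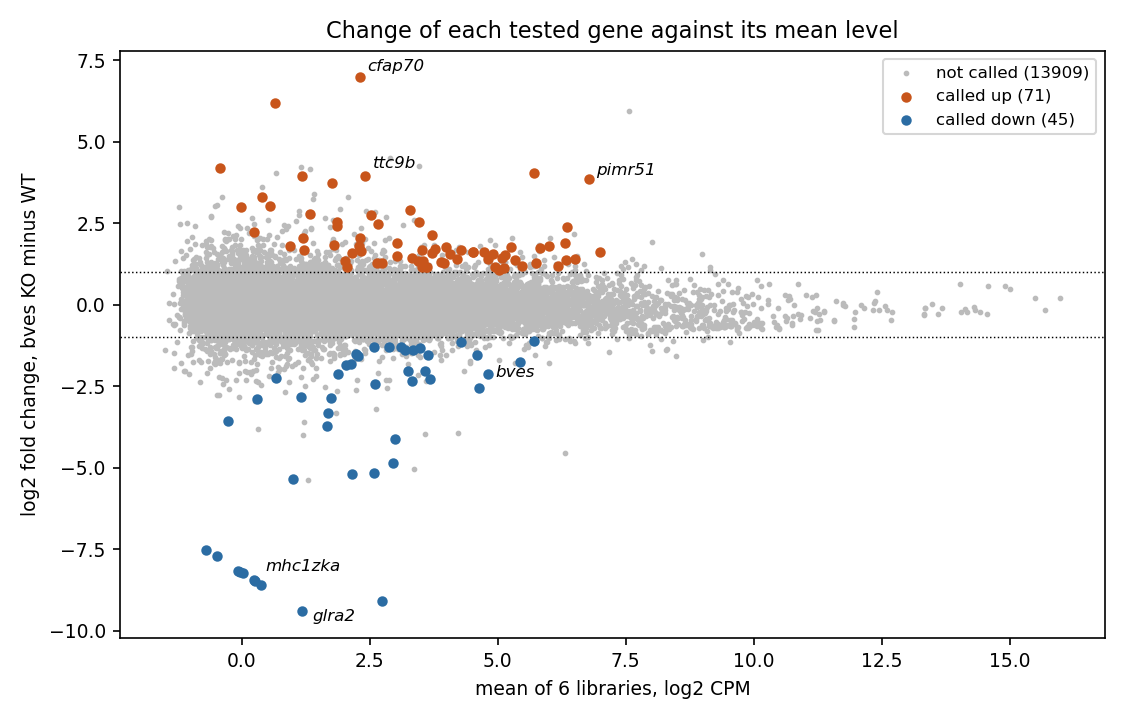
Each point is 1 of the 14025 tested genes, with its mean level over the 6 libraries (log2 CPM) on the horizontal axis and its log2 fold change, *bves* KO minus WT, on the vertical axis. The 71 genes called up are orange and the 45 called down are blue, and dotted lines mark a fold change of 2. Called genes cluster at low and middle levels, and the points below -7 are genes with 0 counts, or at most 1 count in 1 library, in *bves* KO.

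The number of calls turned on single libraries. Without WT 1 there were 11 genes up and 14 down, without WT 2 34 and 31, and without WT 3 90 and 130. Without *bves* KO 1 there were 17 and 20, without *bves* KO 2 110 and 65, and without *bves* KO 3 16 and 15. All 116 called genes kept their direction in each of these 6 fits, and 20 of them kept the call in all 6. DESeq2 on the same 6 libraries called 267 up and 198 down of 14739 genes with an adjusted p, among them all 71 and all 45. These totals are the background for every DESeq2 count below. Each group of calls is therefore given with the number that remained when each library was left out.

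The clearest changes were in genes that were low in WT muscle and several times higher in every knockout library. *ttc9b*, which encodes a tetratricopeptide repeat protein, stood at 0.794, 0.512 and 0.592 CPM in WT and at 10.4, 9.57 and 10.2 CPM in *bves* KO. Its log2 fold change came to 3.95 (SE 0.27, adjusted p = 0.00045 by edgeR), the smallest adjusted p of any gene that rose. *srrm4*, a splicing regulator known from neurons, went from 0.514, 0.512 and 0.395 CPM to 6.49, 5.46 and 7.12 CPM, a log2 fold change of 3.74 (SE 0.29). These levels differed far more between the groups than within them. *cyp2p10*, a cytochrome P450 of the CYP2 family, rose from at most 0.327 CPM to at least 3.49 CPM (log2 fold change 3.97, SE 0.37). *lmbr1l*, a membrane protein gene, rose with a log2 fold change of 2.91 (SE 0.29), and *PLBD2*, a lysosomal phospholipase-like gene, with one of 2.75 (SE 0.33).

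Among the well-expressed genes that rose, *midn* encodes midnolin, which in mammalian cells carries nuclear proteins to the proteasome without ubiquitin. It stood at 36.0, 34.9 and 30.2 CPM in WT and at 138, 133 and 106 CPM in *bves* KO, with a log2 fold change of 1.89 (SE 0.21, adjusted p = 0.0047 by edgeR). *pimr51*, one of a large zebrafish family of Pim kinase genes, went from 7.94, 13.7 and 21.1 CPM to 201, 178 and 235 CPM. Because near-identical members of that family can exchange reads, its log2 fold change of 3.85 (SE 0.37) is uncertain as to which copy it belongs to. *kdm6ba*, a histone H3 lysine 27 demethylase, rose from 34.7, 21.2 and 22.6 CPM to 93.5, 85.4 and 82.1 CPM. *smyd2b*, a lysine methyltransferase known from muscle filament assembly, rose with a log2 fold change of 1.42 (SE 0.23), and *rida*, which clears reactive imines made in amino acid metabolism, with one of 2.40 (SE 0.34). Of the 10 genes named here and in the paragraph before, 7 kept their call without WT 1, 8 without *bves* KO 1, 7 without *bves* KO 3 and all 10 without any one of the others.

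Some calls were genes counted in 1 group and almost absent from the other. In 12 of the 45 genes that fell, no knockout library had more than 3 counts, and in 9 of these all 3 knockout libraries had 0. *glra2*, a subunit of the inhibitory glycine receptor, had 129, 56 and 70 counts in WT and 0 in each *bves* KO library. Set against a floor of 3 counts in each knockout library, it was at least 28.0-fold lower than in WT. Its mean WT level was 4.53 CPM but 135 in the authors' TPM. The shorter gene *gpx4a* had 36.1 CPM and a TPM of 38.4 in WT. Which part of *glra2* the reads came from was not tested. *bspry*, a B-box and SPRY domain gene, had 43, 23 and 41 counts in WT and 0 in *bves* KO, at least 11.8-fold lower. *PDE9A*, a cyclic GMP phosphodiesterase, had 127, 26 and 79 counts in WT and 0, 3 and 2 in *bves* KO. In the opposite direction, 3 of the 71 genes that rose had at most 3 counts in any WT library. *cfap70*, a cilium and flagellum gene, had 3, 0 and 1 counts in WT and 60, 133 and 355 in *bves* KO, so the knockout libraries differed widely among themselves.

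Some of these on-or-off genes carry only clone names. The models *BX005361.4* and *BX005361.2*, named after the same clone, were called in opposite directions. *BX005361.4* had 1, 0 and 3 counts in WT and 15, 24 and 40 in *bves* KO, whereas *BX005361.2* had 32, 21 and 57 in WT and 0 in each *bves* KO library. *si:ch211-261n11.7* and *si:ch211-261n11.8*, with provisional names of 1 clone and up to 9 and 8 counts in *bves* KO, were not among the on-or-off genes and both fell, with log2 fold changes of -5.15 (SE 0.47) and -5.18 (SE 0.55). Genes with clone names made up 757 of the tested genes and 1.72% of them were called, against 0.738% of the 11791 genes with an ordinary symbol. How near-identical copies were separated in counting is not given in the sources used here, so these calls are uncertain as to the copy. Without WT 1, 6 of the 15 on-or-off calls remained, and without *bves* KO 3, 9.

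Among the called genes were several of insulin and mTOR signalling. They were 2 of 29 tested insulin and IGF genes (6.9%) and 2 of 51 genes of PI3K, Akt, SGK and mTOR (3.92%). Of all tested genes, 0.506% rose. *irs2a* and *irs1* encode insulin receptor substrates, the adaptors that carry the signal from the insulin and IGF receptors to PI3K. *irs2a* stood at 3.64, 1.97 and 4.04 CPM in WT and at 22.9, 11.8 and 22.2 CPM in *bves* KO, a log2 fold change of 2.54 (SE 0.34, adjusted p = 0.014 by edgeR). *irs1* stood at 48, 40.08 and 47.3 CPM in WT and at 137, 91.5 and 121 CPM in *bves* KO, a log2 fold change of 1.37 (SE 0.23, adjusted p = 0.031 by edgeR). In both genes all knockout libraries lay above all WT libraries, and *bves* KO 2 was the lowest of the 3. Per transcript length, *irs1* was the more abundant in both groups, with the authors' TPM averaging 5.03 in WT and 13.6 in *bves* KO against 0.763 and 4.54 for *irs2a*. The third adaptor, *irs2b*, stood at 12.9, 9.65 and 20.6 CPM in WT and 43.8, 21.6 and 31.7 CPM in *bves* KO but did not pass the edgeR test (log2 fold change 1.17, adjusted p = 0.14).

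Downstream, *sgk1*, a kinase of the Akt family activated by mTORC2, stood at 25.4, 28.5 and 28.0 CPM in WT and at 69.9, 60.3 and 55.1 CPM in *bves* KO (log2 fold change 1.18, SE 0.19, edgeR adjusted p = 0.030). *deptor*, an inhibitor subunit of the mTOR complexes, went from 7.43, 5.41 and 6.81 CPM to 13.4, 18.7 and 18.4 CPM (log2 fold change 1.36, SE 0.22). Thus an activator-side kinase and an inhibitor of the pathway rose together. *fnip1*, a folliculin partner that links AMPK to mTORC1, stood at 17.6, 14.1 and 14.5 CPM in WT and at 39.1, 39.0 and 44.2 CPM in *bves* KO (log2 fold change 1.40, SE 0.19). *prkd2*, a protein kinase D, rose with a log2 fold change of 1.71 (SE 0.23), *acsl4b*, an acyl-CoA synthetase of polyunsaturated fatty acids, with one of 1.76 (SE 0.25), and *ikbkb*, the kinase that releases NF-kappa-B, with one of 2.79 (SE 0.47).

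Most members of both lists were not called. By edgeR 2 of 29 insulin and IGF genes tested rose, 0 fell and 27 did not pass. Their median log2 fold change was 0.28 against -0.03 over all tested genes. At an unadjusted p under 0.05, 7 of the 29 were higher and 0 lower, against 8.39% and 8.14% of all tested genes. DESeq2 called 4 of them up and 0 down, against 267 up and 198 down of 14739 genes. Of 51 genes of PI3K, Akt, SGK and mTOR, 2 rose by edgeR (*sgk1* and *deptor*) and 0 fell, with a median of 0.02. Here 8 were higher and 5 lower at an unadjusted p under 0.05, and DESeq2 called 7 up and 1 down. The negative regulator *tsc1b* stood at 292, 239 and 121 CPM in WT and 92.5, 126 and 94.3 CPM in *bves* KO, with overlapping groups and an edgeR adjusted p of 0.17. The PI3K regulatory subunit *pik3r3a* stood at 12.1, 22.5 and 22 CPM in WT and at 34.6, 69.9 and 40.8 CPM in *bves* KO (edgeR adjusted p = 0.097). Of the 8 called genes described here, 4 are members of these lists, and *fnip1*, *prkd2*, *acsl4b* and *ikbkb* were placed beside them after their values were seen. All 8 kept their direction whichever library was left out. None of the 8 kept its call without WT 1 or without *bves* KO 1, 2 did without *bves* KO 3, 3 without WT 2, 6 without *bves* KO 2 and 7 without WT 3.

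**Figure D2:**
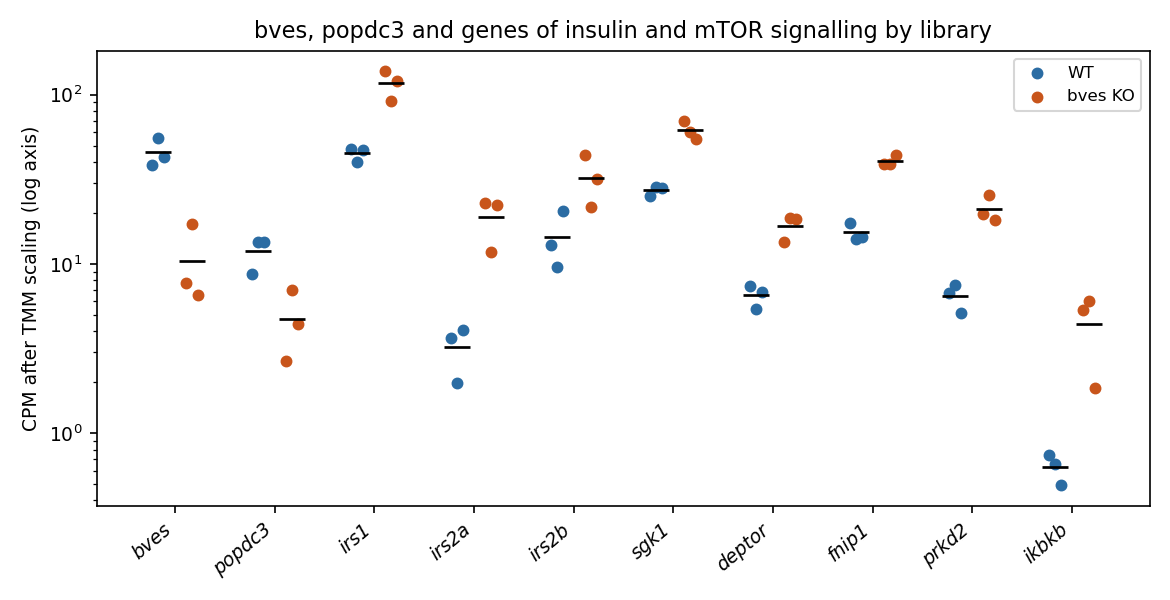
Level of *bves*, its neighbour *popdc3* and 8 genes described with insulin and mTOR signalling in each library, as CPM after TMM scaling on a log axis. Of these, *fnip1*, *prkd2* and *ikbkb* are in neither list used here and were placed beside them after their values were seen. Points are libraries (blue WT, orange *bves* KO, 3 each) and black lines are group means, and for each of the 10 genes the groups lie apart, with *bves* and *popdc3* lower and the other genes higher in *bves* KO. The groups also lay apart in 11.3% of all tested genes upward and 10.3% downward, and *popdc3* and *irs2b* were chosen after their values were seen.

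Collagens and other matrix genes stood higher in the knockout as a group. Of 98 tested members of that list, 84 had a positive log2 fold change, against 47.5% of all tested genes, and the median was 0.41. At an unadjusted p under 0.05, 36 were higher and 0 lower, where the background was 8.39% of all tested genes in the upward and 8.14% in the downward direction. By edgeR 4 rose (4.08%, against 0.506% of all tested genes) and 0 fell. By DESeq2 12 rose and 0 fell, where DESeq2 called 267 up and 198 down of 14739 genes. The summed level of the list was 2336, 2480 and 2480 CPM in WT and 3449, 3522 and 4489 CPM in *bves* KO. The WT libraries were close to each other and all knockout libraries lay above them, with *bves* KO 3 the highest. Leaving out any library in turn kept the list's median between 0.39 and 0.52.

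The 4 called members do different things in the matrix. *loxl2a*, a lysyl oxidase that cross-links collagen, stood at 12.6, 17.7 and 22.1 CPM in WT and at 48.5, 68.7 and 61.0 CPM in *bves* KO (log2 fold change 1.76, SE 0.26, edgeR adjusted p = 0.017). *hapln1a*, a link protein that ties proteoglycan to hyaluronan, went from 20.1, 28.7 and 19.6 CPM to 56.5, 66.0 and 53.4 CPM (log2 fold change 1.36, SE 0.22). In both genes the knockout libraries lay well above the highest WT library. *col6a2*, a chain of collagen VI, the microfibrillar collagen around muscle fibres, stood at 21.8, 21.1 and 22.5 CPM in WT and at 39.6, 44.1 and 58.8 CPM in *bves* KO (log2 fold change 1.12, SE 0.21, edgeR adjusted p = 0.047). *col10a1a*, a short-chain collagen known from bone and cartilage, had a log2 fold change of 2.06 (SE 0.38) at levels of 1.26 to 2.56 CPM in WT and 4.81 to 11.7 CPM in *bves* KO.

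The fibrillar collagen I genes, the most abundant of the list, fell just short of the threshold. *col1a1a* stood at 89.5, 130 and 106 CPM in WT and at 228, 255 and 373 CPM in *bves* KO, a log2 fold change of 1.40 (SE 0.28, adjusted p = 0.057 by edgeR). *col1a2* stood at 100.2, 123 and 109 CPM in WT and at 193, 201 and 324 CPM in *bves* KO (adjusted p = 0.093). *col6a1*, the partner chain of *col6a2*, had a log2 fold change of 0.88 (SE 0.20, adjusted p = 0.084). Beyond the list, *itga5*, the integrin chain of the fibronectin receptor, and *nid2a*, a basement membrane nidogen, rose with log2 fold changes of 1.61 (SE 0.26) and 1.15 (SE 0.19). Markers of fibroblasts, several of them collagens of this list, moved with these genes, from 507 to 650 CPM in WT to 967 to 1463 CPM in *bves* KO. *pdgfra*, a fibroblast marker that is not a matrix gene, had a log2 fold change of -0.89 (edgeR adjusted p = 0.089). Of the 10 fibroblast markers, 1 copy of *col6a3* was at or under 3 counts in every library. The part of fibroblast content in the result was not tested. Of the 6 called genes here, 3 kept the call without WT 2 or WT 3, 2 without *bves* KO 2, 1 without *bves* KO 1 and 0 without WT 1 or *bves* KO 3.

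Immediate early genes, which respond within minutes to growth factors, stretch or stress, were also higher together. Of 51 tested, 45 had a positive log2 fold change, and the median was 0.43. At an unadjusted p under 0.05, 19 were higher and 0 lower, against 8.39% and 8.14% of all tested genes. By edgeR 1.96% were called up, against 0.506% of all tested genes. The summed level was 1419, 1412 and 1391 CPM in WT and 1795, 1877 and 1988 CPM in *bves* KO, without overlap. Sums of several other lists, such as hypoxia and glycolysis genes, were also higher without overlap. The 1 called member was *fosl2*, an AP-1 subunit, at 9.81, 11.7 and 6.36 CPM in WT and 35.7, 22.1 and 32.1 CPM in *bves* KO (log2 fold change 1.69, SE 0.28, edgeR adjusted p = 0.030). *egr1*, an early growth response factor, stood at 9.44, 5.92 and 7.40 CPM in WT and 11, 14.6 and 21.0 CPM in *bves* KO (adjusted p = 0.13). *nr4a1*, the most abundant gene of the list, had overlapping groups and a log2 fold change of 0.34 (adjusted p = 0.62). By DESeq2 6 were called up, where it called 267 of 14739 genes up. Endothelial and macrophage markers, at the levels given above, were higher in the same libraries, and their part in this result was not tested.

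Circadian clock genes were mostly higher in the knockout. The clock is a loop in which Clock and Bmal proteins switch on the Per and Cry repressors and the nuclear receptors of the Nr1d family. Of 40 clock genes tested, 2 rose (5.0%, against 0.506% of all tested genes) and 0 fell. Another 12 were higher and 1 was lower at an unadjusted p under 0.05, against 8.39% of all tested genes in the upward and 8.14% in the downward direction, and the median log2 fold change was 0.32. DESeq2 called 5 up and 1 down, against 267 up and 198 down of 14739 genes. The summed markers of fibroblasts, endothelium, macrophages and T and NK cells, at the levels given above, were higher in the same libraries, and their part in this result was not tested. *nr1d2a*, a Rev-erb nuclear receptor, stood at 43.9, 58.7 and 85.1 CPM in WT and at 185, 216 and 181 CPM in *bves* KO (log2 fold change 1.63, SE 0.28, edgeR adjusted p = 0.034). *cry1b*, a cryptochrome repressor, went from 6.40, 5.05 and 7.15 CPM to 15.6, 12.8 and 18.7 CPM (log2 fold change 1.33, SE 0.23). *per2*, a light-responsive period gene in zebrafish, stood at 18.3, 13.7 and 22.2 CPM in WT and 39.1, 38.0 and 44.8 CPM in *bves* KO, just beyond the threshold (edgeR adjusted p = 0.051). The groups did not overlap in any of these genes.

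*nocta*, which encodes nocturnin, an enzyme with a daily rhythm in vertebrates, rose from 10.4, 12.2 and 16.4 CPM to 46.3, 38.3 and 35.8 CPM (log2 fold change 1.62, SE 0.23, edgeR adjusted p = 0.016). Of 21 glucocorticoid response genes, *sgk1* rose and *mt2* fell, and the median log2 fold change was 0.37. Each made up 4.76% of the list, where 0.506% of all tested genes rose and 0.321% fell. At an unadjusted p under 0.05, 7 of the list were higher and 3 lower, against 8.39% and 8.14% of all tested genes. DESeq2 called 3 up and 1 down. *fkbp5*, a chaperone of the glucocorticoid receptor, stood at 135, 236 and 401 CPM in WT and at 795, 740 and 740 CPM in *bves* KO but did not pass the edgeR test (adjusted p = 0.094), as its WT libraries spread widely. The time of day at which muscle was taken is not given in the sources used here. Of the 4 calls among *fosl2*, *nr1d2a*, *cry1b* and *nocta*, 4 remained without WT 3, 3 without *bves* KO 2, 1 without WT 2 and 0 without WT 1, *bves* KO 1 or *bves* KO 3.

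**Figure D3:**
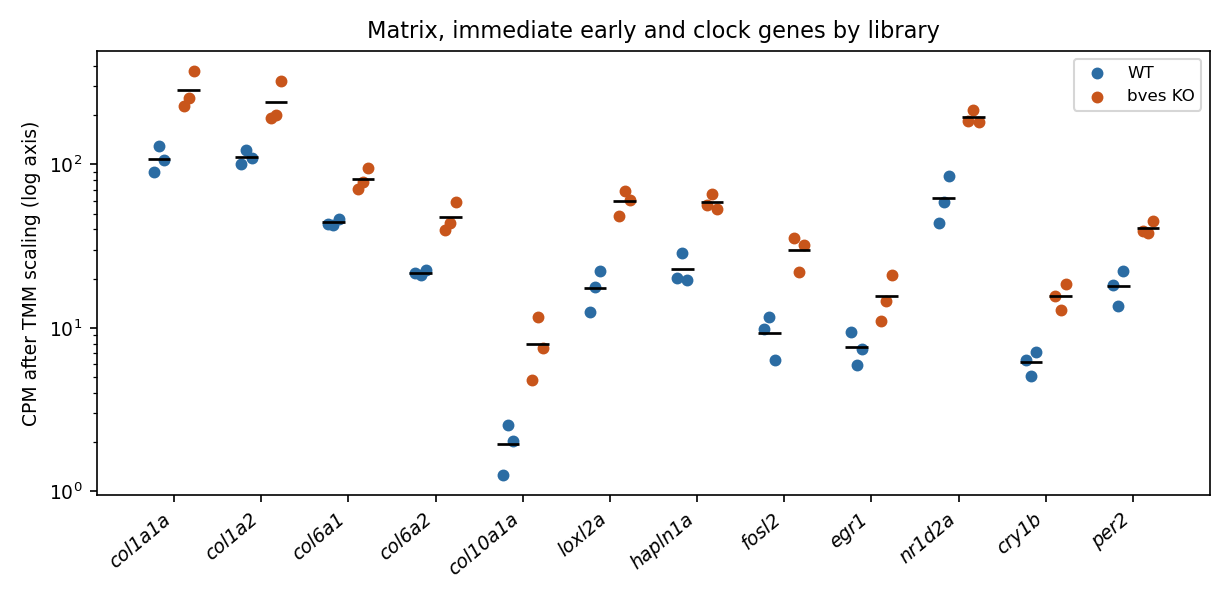
Level of 7 matrix genes, 2 immediate early genes and 3 clock genes in each library, as CPM after TMM scaling on a log axis. Points are libraries (blue WT, orange *bves* KO, 3 each) and black lines are group means, and in all 12 genes every knockout library lies above every WT library. The same held for 11.3% of all tested genes. The 12 genes are a selection, of which *col6a1*, *egr1* and *per2* were chosen after their values were seen. *nr4a1*, whose groups overlapped, is not shown.

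Some stress and oxygen genes were called. Among all tested genes 0.506% rose, against 2.44% of 41 integrated stress response genes and 4.17% of 48 hypoxia genes. *ddit3*, which encodes the stress factor Chop, stood at 10.1, 7.75 and 9.12 CPM in WT and at 24.4, 18.9 and 23.1 CPM in *bves* KO (log2 fold change 1.296, SE 0.20, edgeR adjusted p = 0.026). It was the 1 gene called by edgeR among 41 of the integrated stress response, whose median log2 fold change was 0.08. At an unadjusted p under 0.05, 8 of the 41 were higher and 3 lower, and DESeq2 called 1 up and 3 down. *epas1a*, which encodes a Hif-2 alpha subunit, stood at 16.9, 17.5 and 20.3 CPM in WT and at 40.22, 68.3 and 40.18 CPM in *bves* KO (log2 fold change 1.44, SE 0.25). With *loxl2a* it made up the 2 calls among 48 hypoxia genes, and 0 fell. Of these 48 genes 33 had a positive log2 fold change, and the median was 0.22. At an unadjusted p under 0.05, 10 were higher and 4 lower, against 8.39% and 8.14% of all tested genes. DESeq2 called 7 of them up and 0 down, against 267 up and 198 down of 14739 genes. *smox*, a spermine oxidase that yields hydrogen peroxide, rose from 16.9, 20.7 and 16.9 CPM to 53.5, 43.5 and 59.7 CPM (log2 fold change 1.52, SE 0.21).

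In the opposite direction, *gpx4a*, a glutathione peroxidase that removes lipid peroxides, stood at 32.1, 36.2 and 40.15 CPM in WT and at 13, 10.4 and 14.2 CPM in *bves* KO (log2 fold change -1.53, SE 0.20, edgeR adjusted p = 0.014). It was the 1 gene called by edgeR of 44 antioxidant genes (2.27%, where 0.321% of all tested genes fell). At an unadjusted p under 0.05, 6 of the 44 were higher and 4 lower, against 8.39% and 8.14% of all tested genes. DESeq2 called 1 up and 1 down. *mt2*, a metallothionein that binds zinc and copper, fell from 5.05, 6.14 and 8.04 CPM to 1.67, 1.63 and 2.07 CPM (log2 fold change -1.83, SE 0.27). *hmox1a*, heme oxygenase, stood at 1.35, 2.19 and 0.592 CPM in WT and 4.55, 5.40 and 6.59 CPM in *bves* KO without passing the edgeR test (adjusted p = 0.061). The 5 calls among *ddit3*, *epas1a*, *smox*, *gpx4a* and *mt2* all remained without WT 3 or *bves* KO 2, 3 remained without WT 2, 1 without WT 1 and 0 without *bves* KO 1 or *bves* KO 3.

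Genes of antigen presentation moved in both directions. Of 53 tested, *mhc2a* rose (1.89%) and *mhc2b*, *mhc1zka* and *mhc1zfa* fell (5.66%) by edgeR. Of all tested genes, 0.506% rose and 0.321% fell. At an unadjusted p under 0.05, 12 of the 53 were higher and 6 lower, against 8.39% and 8.14% of all tested genes. DESeq2 called 4 up and 3 down. *mhc2a*, an MHC class II gene, stood at 27.6, 41.2 and 16.8 CPM in WT and at 112, 87.2 and 99.4 CPM in *bves* KO (log2 fold change 1.80, SE 0.32, edgeR adjusted p = 0.036). *mhc2b*, also of class II, went the other way, from 3.74, 7.97 and 5.87 CPM to 0.523, 0.732 and 0.478 CPM (log2 fold change -3.32, SE 0.37, edgeR adjusted p = 0.0047). The class I gene *mhc1zka* had 47, 31 and 55 counts in WT and 0 in each *bves* KO library, at least 14.8-fold lower than in WT. *mhc1zfa* had 24, 11 and 54 counts in WT and 2, 2 and 3 in *bves* KO. MHC genes come in near-identical copies that differ between fish, so the copy behind each value is uncertain. *psmb8a*, an immunoproteasome subunit, stood at 3.32, 5.92 and 1.97 CPM in WT and 14.1, 7.37 and 9.04 CPM in *bves* KO (edgeR adjusted p = 0.13). Of the 4 MHC calls, 2 remained without WT 1, *bves* KO 1 or *bves* KO 3.

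Other genes that fell were counted in both groups. *rgma*, a co-receptor of BMP ligands, stood at 14.2, 14.3 and 15.6 CPM in WT and at 5.39, 5.29 and 6.38 CPM in *bves* KO (log2 fold change -1.37, SE 0.19, edgeR adjusted p = 0.016). *cbr1*, a carbonyl reductase, went from 6.59, 7.61 and 6.86 CPM to 2.46, 2.31 and 2.60 CPM (log2 fold change -1.51, SE 0.22). In both genes the libraries of a group were nearly alike. *sult2st3*, a sulfotransferase, *morc3b*, a chromatin ATPase gene, and *gpr174*, a lysophosphatidylserine receptor of lymphocytes, fell with log2 fold changes of -1.56 (SE 0.23), -2.03 (SE 0.30) and -2.86 (SE 0.37).

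Among the genes that fell, 1 was in the list of myogenic genes and 1 in that of fast filament genes. *six4b*, a homeobox factor of the myogenic programme, stood at 15.7, 16.8 and 15.6 CPM in WT and at 4.71, 6.75 and 7.65 CPM in *bves* KO (log2 fold change -1.33, SE 0.23, edgeR adjusted p = 0.034). It was the 1 called gene of 32 myogenic and satellite cell genes (3.12%, against 0.321% of all tested genes that fell). Of the 32, 4 were higher and 8 lower at an unadjusted p under 0.05, against 8.39% and 8.14% of all tested genes. DESeq2 called 1 up and 2 down. *myf6*, a myogenic regulatory factor, stood at 8.04, 7.90 and 8.19 CPM in WT and 3.98, 4.33 and 4.94 CPM in *bves* KO but did not pass the edgeR test (log2 fold change -0.86, adjusted p = 0.090). *TNNC2*, named as a fast troponin C, stood at 50.6, 62.3 and 87.5 CPM in WT and at 25.4, 13.3 and 21.0 CPM in *bves* KO (log2 fold change -1.75, SE 0.30). This entry is described by the provisional name *si:rp71-17i16.4*. Its level was small beside the summed fast filament genes, at 134900, 265600 and 155900 CPM in WT. *TNNC2* was the 1 called gene of 43 fast filament genes (2.33%), of which DESeq2 called 3 down. Their median log2 fold change was -0.04, and that median became 0.26 without WT 2.

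Genes of RNA processing and mitochondria were also among those that fell, though others of both kinds rose. *sf3a2*, a spliceosome subunit, stood at 30.2, 23.2 and 27.6 CPM in WT and at 12.5, 11.4 and 12.8 CPM in *bves* KO (log2 fold change -1.14, SE 0.19). *znf503*, a zinc finger repressor, went from 79.0, 63.0 and 71.9 CPM to 31.7, 30.5 and 37.4 CPM (log2 fold change -1.10, SE 0.20). *timm9*, a chaperone of mitochondrial protein import, stood at 11.4, 14.8 and 13.2 CPM in WT and at 4.86, 6.30 and 3.93 CPM in *bves* KO (log2 fold change -1.38, SE 0.24). *agk*, a lipid kinase of the inner mitochondrial membrane, and *pde12*, which trims poly(A) tails in mitochondria, fell with log2 fold changes of -1.29 (SE 0.23) and -2.02 (SE 0.37), and the small membrane protein gene *smim8* with one of -2.54 (SE 0.44). Of the 13 calls from *rgma* to *smim8*, 11 remained without WT 3, 8 without *bves* KO 2, 6 without WT 2, 2 without *bves* KO 1 and 0 without WT 1 or *bves* KO 3.

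The lists of oxidative phosphorylation, mitochondrial, ribosomal and proteasome genes held 0 calls by edgeR, though their medians lay to one side. Of 88 nuclear genes of oxidative phosphorylation, 0 were called in either direction by edgeR, 78 had a negative log2 fold change, and the median was -0.28. At an unadjusted p under 0.05, 9 were lower and 1 was higher, where 8.14% of all tested genes were lower and 8.39% higher. DESeq2 called 2 lower, where it called 198 of 14739 genes lower. The median was -0.11 without WT 2 and -0.46 without WT 1. The summed level was 23370, 32360 and 31890 CPM in WT and 24730, 26070 and 24540 CPM in *bves* KO, so WT 1 lay with the knockout libraries. *atp5meb*, a subunit of ATP synthase, stood at 306, 482 and 394 CPM in WT and at 187, 222 and 167 CPM in *bves* KO (log2 fold change -1.04, SE 0.26, edgeR adjusted p = 0.11). Of the 13 protein-coding genes of the mitochondrial genome, 0 were called by edgeR or DESeq2, 0 had an unadjusted p under 0.05, and the median was -0.15. Among 63 genes of mitochondrial biogenesis, dynamics and mitophagy, 0 were called by edgeR and 1 by DESeq2. Their values were lower in 45. At an unadjusted p under 0.05, 12 were lower and 2 higher, against 8.14% and 8.39% of all tested genes. *hspd1*, the matrix chaperonin Hsp60, stood at 77.9, 118 and 62.0 CPM in WT and 36.8, 46.8 and 33.2 CPM in *bves* KO (adjusted p = 0.092 by edgeR).

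Ribosomal protein genes showed how far WT 2 could shape a median. Of 84 tested, 81 had a negative log2 fold change and the median was -0.64, yet 0 were called by edgeR or DESeq2. At an unadjusted p under 0.05, edgeR picked 0 and DESeq2 13. Their summed level was 55370, 117300 and 46030 CPM in WT and 47320, 53970 and 40670 CPM in *bves* KO. WT 2 stood above the other WT libraries added together, while the rest overlapped between the groups. Without WT 2 the median was -0.09 and 18 of 84 were higher, and without WT 3 it was -0.90 and 59 had an unadjusted p under 0.05. The slow muscle filament genes, with a median of -0.35 and 0 calls among 22 by edgeR or DESeq2, had a median of 0.03 without WT 3, and 2 were lower at an unadjusted p under 0.05. The proteasome genes, with a median of -0.30 and 0 calls among 57 by edgeR, had one of -0.02 without WT 1. Here 5 were higher and 6 lower at an unadjusted p under 0.05, against 8.39% and 8.14% of all tested genes. DESeq2 called 3 higher and 1 lower.

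**Figure D4:**
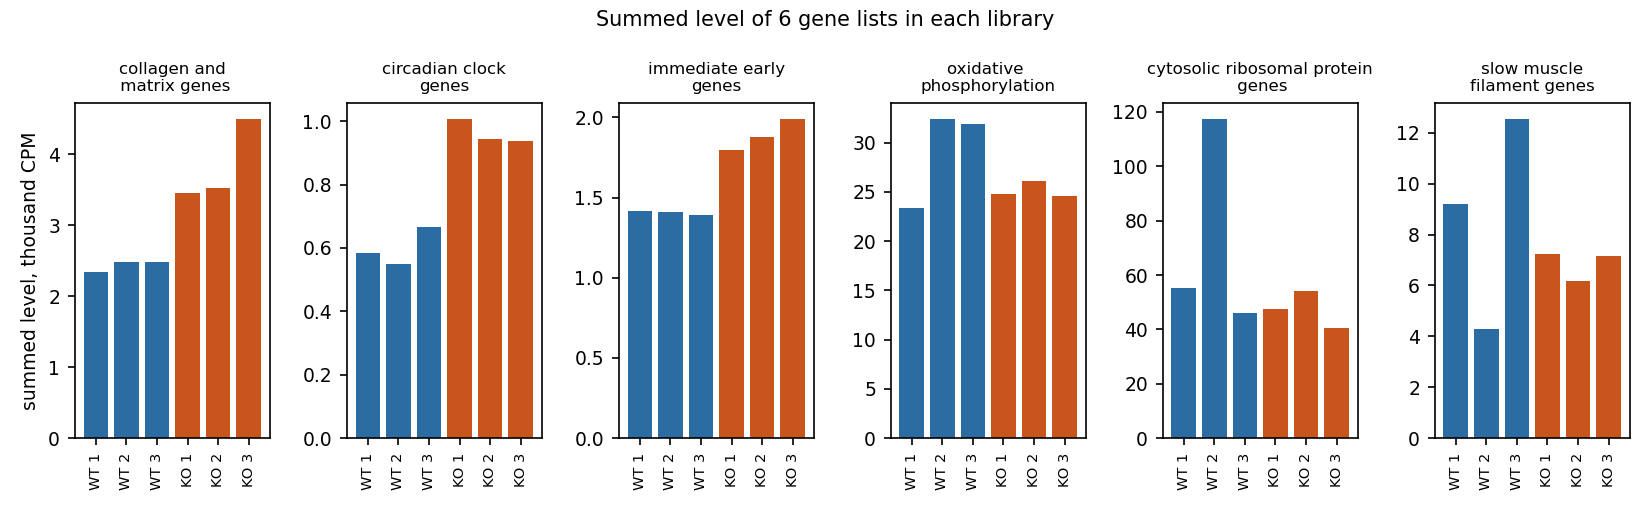
Summed level of 6 gene lists in each library, in CPM with the axis in units of 1000 after TMM scaling, with bars from 0 (blue WT, orange *bves* KO). Matrix, clock and immediate early genes lie higher in all knockout libraries than in all WT libraries, whereas ribosomal protein genes stand out in WT 2 alone and slow filament genes spread most among the WT libraries. The separation was not particular to the lists shown. Sums of insulin and IGF, integrated stress response, glucocorticoid response and hypoxia genes also lay higher in all knockout libraries. So did those of glycolysis, BMP and myostatin, cyclic nucleotide and qPCR genes, and that of myogenic genes lay lower in all of them.

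Atrophy genes were not called. Of 27 ubiquitin ligases of atrophy and FoxO factors, 0 passed the edgeR test, DESeq2 called 1 higher, and the median log2 fold change was -0.02. At an unadjusted p under 0.05, 3 were higher and 2 lower, against 8.39% and 8.14% of all tested genes. *fbxo32*, the ligase atrogin-1, stood at 49.6, 13.9 and 16.8 CPM in WT and at 140, 44.9 and 69.3 CPM in *bves* KO. The groups overlapped, because WT 1 lay above *bves* KO 2, and the log2 fold change of 1.66 (SE 0.60) had an edgeR adjusted p of 0.24. *trim63b*, the ligase MuRF1, stood at 116, 151 and 117 CPM in WT and 177, 195 and 242 CPM in *bves* KO (log2 fold change 0.68, adjusted p = 0.21). Of the lists of calcium handling (39 tested), dystrophin complex and caveolae (40), glycolysis (71), fatty acid use (70), autophagy (58), apoptosis (57), neuromuscular junction (39) and BMP and myostatin genes (41), 0 held a call by edgeR, with medians between -0.05 and 0.17. In each of them 3 to 8 genes were higher and 1 to 7 lower at an unadjusted p under 0.05, against 8.39% and 8.14% of all tested genes. DESeq2 called between 0 and 5 genes a list. Of 56 tested genes of a list of cyclic nucleotide signalling, the 1 called by edgeR was *bves* itself, and DESeq2 called 2 up and 2 down. *PDE9A*, which fell and is given above, carries another symbol and was not in that list.

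**Figure D5:**
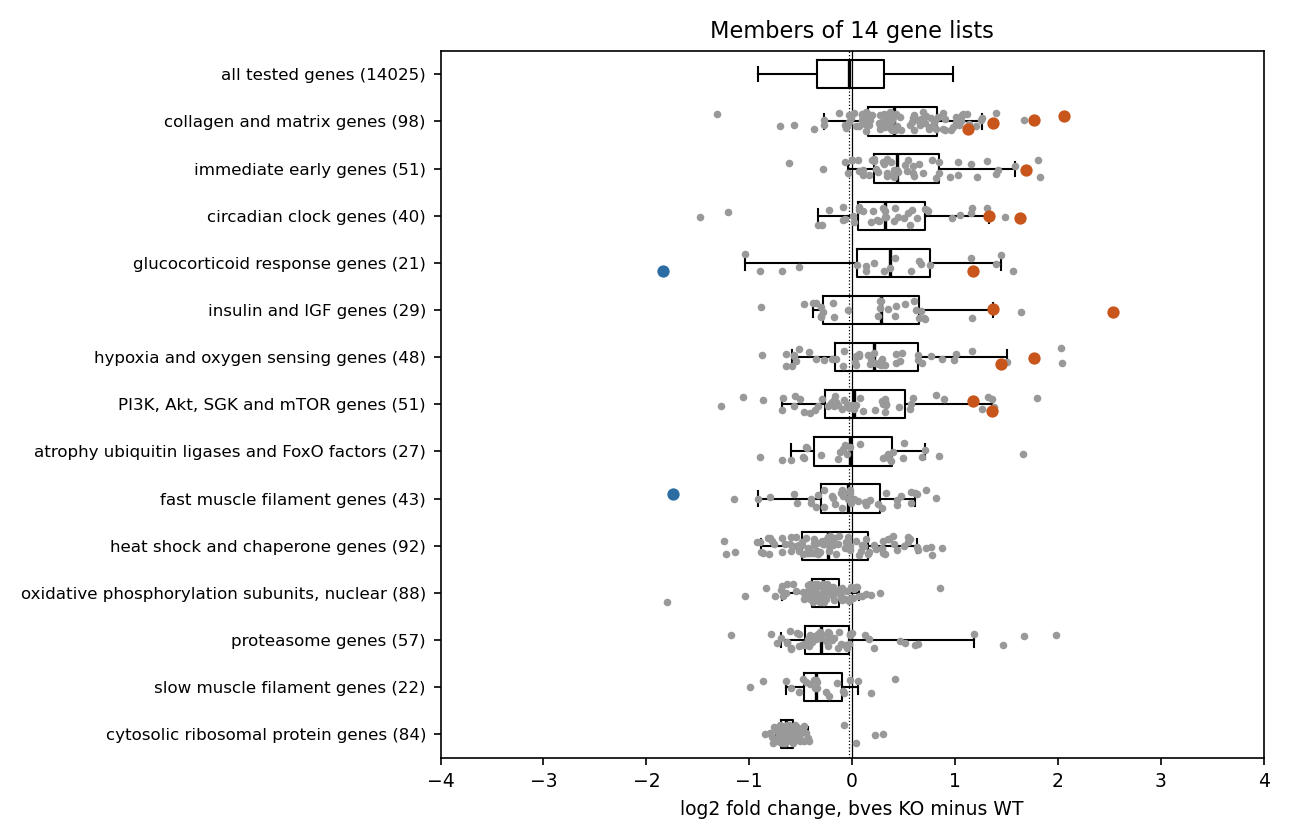
Log2 fold change, *bves* KO minus WT, of the members of 14 gene lists, with the number tested in brackets and all 14025 tested genes at the top. Boxes span the quartiles with the median as a black line, whiskers leave out 5% of genes at each end, small grey points are members that were not called, and large points are members called up (orange) or down (blue). Matrix genes have a median of 0.41 with 4 calls, and ribosomal protein genes one of -0.64 with 0 calls.

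The authors' tables also list KEGG and GO terms for each gene, and these hold other genes than the lists used above. Of 6839 tested genes with a KEGG term, 0.526% rose and 0.278% fell. Among terms of 20 to 500 genes with at least 3 called genes, adipocytokine signaling held the largest share of genes that rose, 5 of 149 or 3.36% (*irs2a*, *acsl4b*, *sgk1*, *irs1* and *ikbkb*), with 0 that fell. The mTOR signaling pathway followed with 6 of 277 or 2.17% (*fnip1*, *irs2a*, *sgk1*, *deptor*, *irs1* and *ikbkb*), although the median log2 fold change of its genes was -0.01. The shares rest on the same few genes, and FoxO signaling (5 of 304) and insulin signaling (4 of 286, with 1 that fell) overlapped with them. KEGG Autophagy held 6 of 373 that rose (*irs2a*, *sgk1*, *deptor*, *irs1*, *ikbkb* and *epas1a*) and Apoptosis 4 of 284 (*ddit3*, *fosl2*, *sgk1* and *ikbkb*), whereas the autophagy and apoptosis lists above, which hold other members, had 0 calls by edgeR. Fatty acid degradation held 1 of 77, *acsl4b*. ECM-receptor interaction held 2 of 127 that rose and had a median of 0.31. Oxidative phosphorylation (146 genes, median -0.23) and ribosome (148 genes, median -0.59) held 0 genes called by edgeR in either direction.

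For the genes that fell, the KEGG terms with at least 3 called genes and the largest shares were cell adhesion molecules, with 4 of 186 or 2.15% and as many that rose, and Herpes simplex virus 1 infection, with 5 of 306 that fell and 4 that rose. Both terms hold MHC genes. Among GO terms, of whose 13164 genes 0.486% rose and 0.334% fell, response to hypoxia held 3 of 45 that rose (*irs2a*, *loxl2a* and *ddit3*). The term for collagen-containing extracellular matrix held 3 of 84 and had the median 0.47. The terms external side of plasma membrane and immune response had the largest shares of genes that fell, 3 of 76 and 4 of 103. The shares are descriptions of small counts, and no enrichment test was run on them.

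The genes that had also been measured by qPCR include the target *bves* and the reference gene *actb1*. Others among them were picked with these same libraries in view, so the counts are not independent evidence of direction. Of these 17 genes, 5 rose by edgeR (*irs2a*, *irs1*, *loxl2a*, *ddit3* and *epas1a*, 29.4%) and 1 fell (*bves*, 5.88%). Of all tested genes, 0.506% rose and 0.321% fell. At an unadjusted p under 0.05, 13 of the 17 were higher and 3 lower, against 8.39% and 8.14% of all tested genes. DESeq2 called 12 of them up and 3 down, against 267 up and 198 down of 14739 genes. *mapk6*, an atypical MAP kinase, stood at 51.2, 31.4 and 63.5 CPM in WT and at 163, 84.0 and 169 CPM in *bves* KO (log2 fold change 1.51, SE 0.34, edgeR adjusted p = 0.080). *sgk2b*, a kinase related to *sgk1*, stood at 23.5, 50.2 and 50.9 CPM in WT and at 102, 96.4 and 99.3 CPM in *bves* KO (adjusted p = 0.087). In both genes the groups did not overlap. The reference gene *actb1*, a cytoplasmic actin, stood at 461.6, 710 and 528.2 CPM in WT and at 866.8, 762.7 and 1004 CPM in *bves* KO, also without overlap, with a log2 fold change of 0.63 (SE 0.27, unadjusted p = 0.045 and adjusted p = 0.29 by edgeR). Another list held 12 transcripts for the targets of the study's Western blot antibodies, tubulin genes among them. The 1 called by edgeR was *bves* (8.33%, where 0.321% of all tested genes fell), for which the study lists an antibody but describes no blot. Those of the blotted respiratory chain subunits did not pass the edgeR test. At an unadjusted p under 0.05, 3 of the 12 were higher and 1 lower, and DESeq2 called 2 up and 1 down.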

How the data were processed

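RNA sequencing of zebrafish skeletal muscle was analysed in 6 libraries, 3 of WT and 3 of *bves* KO. Estimated counts (expected counts of reads per Ensembl gene, not normalized) were deposited by the authors, and 9.01 to 11% of them were not whole numbers and were rounded before testing. The authors also deposited TPM values, levels scaled for transcript length and library total, which were used here only to compare levels between genes. In some genes, such as *glra2*, they did not follow the counts divided by the listed gene length. The submitters' processing notes name fastp, HISAT2, StringTie and RSEM, with no version. The genome build and whether counting used strand are not given in the sources used here. Further deposited columns hold the authors' own fold changes, p-values and significance marks for their comparisons and were not used. The tables listed 32520 genes, and the *bves* KO columns that stand in both tables differed in 0 values.

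Groups were taken from the sample labels. Genes were filtered with filterByExpr (minimum count 10), scaled by TMM, and tested with edgeR 4.0.16 (robust quasi-likelihood test, Benjamini-Hochberg adjustment over the 14025 genes tested, R 4.3.3). A call needed an adjusted p under 0.05 and a fold change above 2. The standard error is the log2 fold change divided by the square root of the F statistic. Unadjusted p-values and medians describe gene lists, and no set test was run. Each library pooled muscle of 2 fish, and p-values measure only the spread between these 6 samples. Depth is given as the total of estimated counts, and a fold against a group at 0 was set against a floor of 3 counts in each library. Gene order came from RefSeq (GRCz12tu), used for names and neighbours, and 13104 of the tested genes (93.4%) had a chromosome there. The exercised knockouts were left out of the fit because 2 of their 3 libraries held 47.4 and 49.6 CPM of *bves*, against 39.5 to 57.2 in WT and 11.4 in the other exercised library, all in a scaling of the 9 libraries.

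Named were *bves*, the 12 genes with ordinary symbols and no overlap of smallest adjusted p and the 8 of highest CPM in each direction, called members and the 3 most abundant members of each list, and the genes the study measured by qPCR or Western blot, with some of these described only by counts. *popdc3*, *pimr209*, *cnot10*, *trim71*, *gask1a*, *irs2b*, *acsl4b*, *ikbkb*, *kdm6ba*, *col6a1*, *itga5*, *nid2a*, *pdgfra*, *per2*, *nocta*, *egr1*, *psmb8a*, *myf6*, *hspd1*, *timm9*, *agk*, *gfm2*, *cfap70* and the genes with clone or provisional names were chosen after their values were seen. Members and lists were chosen with earlier results of these data known. Alternatives were DESeq2 1.42.0, other scalings and filters, a replicate block, all 9 libraries and each library left out. The code was tested on simulated data. Tables and figures were made with Python 3.11.15, pandas 2.3.3 and matplotlib 3.10.9.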

Additional observations from a re-analysis of the deposited data

How the results depend on the processing

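Against 71 genes called up and 45 down, DESeq2 called 267 and 198, testing without a low-count filter 174 and 127, and an adjusted p under 0.1 194 and 112. Requiring at least 10 counts in every library left 29 down and 69 up. Other scalings, all 9 libraries, testing without robust estimation and leaving out mitochondrially encoded genes gave counts within 1.5 times. Leaving out 1 library gave 11 to 110 up and 14 to 130 down. For *bves* the log2 fold change ran from -2.674 to -1.875 with 1 library left out, and over all 9 libraries it was -2.127 with an edgeR adjusted p of 0.104. None of the called genes changed direction under any of these alternatives, while some list medians near 0 did, such as that of fast filament genes. WT and *bves* KO libraries share replicate numbers but came from different fish. Deviations of same-numbered libraries correlated at -0.00724, 0.137 and 0.174. Their mean of 0.101 lay just above the minimum of 0.1 set for pairing, yet the main fit did not treat the numbers as pairs. A fit with the replicate block called 140 up and 87 down with *bves* at -2.232. Over 33 list medians and 16 alternatives, 29 values differed from the reported median by more than the spread between libraries, those of ribosomal, fast filament and proteasome genes among them. With 3 libraries a group and 45 to 71 calls by edgeR, missing calls are no sign that a gene did not differ.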
